A study of Homo sapiens with 4 samples.

Results

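The mRNAs described here are those of the IGF2BP family, IGF2BP1, IGF2BP2 and IGF2BP3, and of 7 genes long known as IGF2BP targets, IGF2, HMGA1, HMGA2, LIN28B, CD44, MYC and ACTB. These 10 genes were chosen by name from 20046 protein-coding genes, and a peak was counted for a gene when its summit lay in one of the gene's exons. That gave 35 of 44622 peaks in replicate 1 and 23 of 42723 in replicate 2. The series compared RNA that came down with an antibody against IGF2BP3 (RNA immunoprecipitation and sequencing, RIP-seq) with input RNA in OE-19, an established line of esophagogastric junction adenocarcinoma. No genetic change, drug or time course was involved. By the sample records, all cells were cross-linked with ultraviolet light (264 nm, 400 mJ). The study's methods name no such step for RIP and describe it for another assay, LACE-seq. There were 2 IGF2BP3 RIP samples and 2 input samples. Only the RIP samples had peak lists here, so input values were not analysed here, and the sample labels do not say whether the replicates were separate cultures, although the study calls them biological replicates.

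IGF2BP proteins are oncofetal RNA-binding proteins. They carry RRM and KH domains, bind mRNAs in the cytoplasm, and are known for holding transcripts in granules, for stabilising them and for reading m6A. Their first targets were found in embryos and tumour cells. They include the zipcode of beta-actin mRNA, the coding region determinant of MYC, leaders of IGF2 mRNA, and the 3′ UTRs of HMGA2, LIN28B and CD44. The question put to the lists was whether these mRNAs carried IGF2BP3 peaks, and where.

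Exonic peaks in both replicates were found for 4 of the 10 genes, which was 40% against 28.0% of all protein-coding genes. In replicate 1 there were 5 such genes, or 50% against 32.6%, and in replicate 2 there were 4, or 40% against 31.6%. With 10 genes, a shift of 1 gene is 10 percentage points, so these shares are not set apart from the background. The peaks were unevenly spread. IGF2BP2 and IGF2BP3 held 30 of the 35 peaks in replicate 1 and 21 of the 23 in replicate 2. HMGA2 and CD44 had 1 or 2 peaks per replicate. MYC had 2 peaks in replicate 1 and 0 in replicate 2. IGF2BP1, IGF2, HMGA1, LIN28B and ACTB had 0 in both, introns included.

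**Figure D1:**
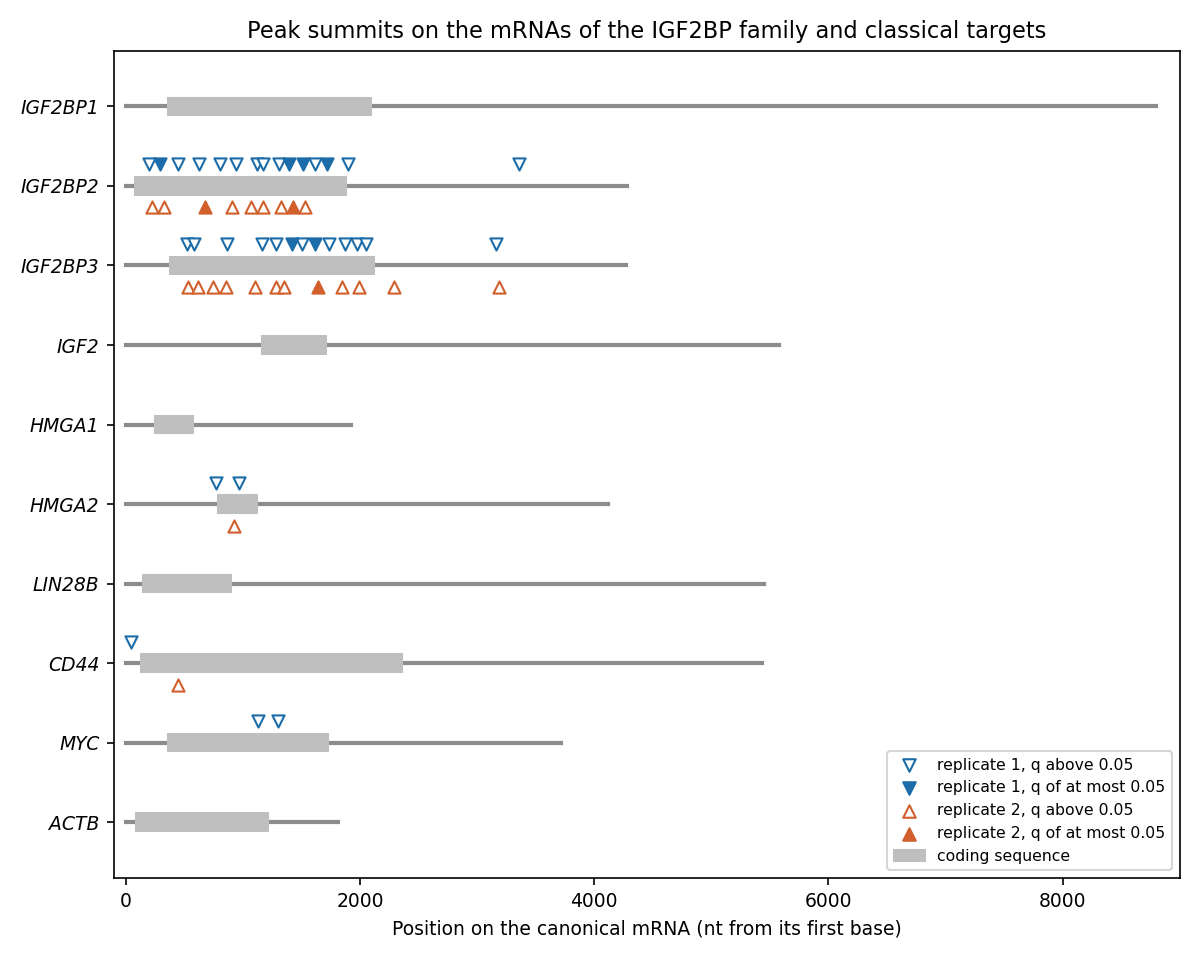
Peak summits of both replicates on the canonical mRNA of each of the 10 genes, with position in nt on the x axis, the coding sequence as a grey box and filled symbols for a q of at most 0.05. Summits run along the coding sequence of IGF2BP2 and IGF2BP3, while 5 mRNAs carry 0 summits.

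Each peak carried a fold enrichment, which is the RIP pileup relative to the local background that the authors' peak caller estimated, and a q, the p corrected for multiple testing. Of the peaks on these genes, 6 of 35 in replicate 1 (17.1%) and 3 of 23 in replicate 2 (13%) had a q of at most 0.05. All of them lay on IGF2BP2 or IGF2BP3. In the full lists this share was 9.77% in replicate 1 and 7.47% in replicate 2. Overlap with a peak of the other replicate was seen for 19 peaks in each replicate, which was 54.3% of those in replicate 1 and 82.6% of those in replicate 2. The same share over the full lists was not computed, so these percentages are not set apart from them. The summits of these 19 overlapping pairs lay a median of 32 nt apart. The folds within a pair differed by a median of 0.19 on the log2 scale and by up to 1.20. Of the 19 pairs, 2 had a q of at most 0.05 in both replicates. One lay in exon 11 of IGF2BP3 and the other in exon 12 of IGF2BP2.

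IGF2BP3 encodes the immunoprecipitated protein (ENSG00000136231.14, GRCh38 chromosome 7, 23310209 to 23470491, minus strand). Its mRNA carried 14 peaks in replicate 1. Replicate 2 gave 12, for a mean of 13 ± 1.41 (SD, n = 2). The highest fold was 6.23 in replicate 1 and 6.47 in replicate 2, with a mean of 6.35 ± 0.171 (SD, n = 2). Among protein-coding genes with a peak, this ranked at percentile 95.2 in replicate 1 and 97.6 in replicate 2. The median gene with a peak had 4 peaks in both replicates, and a highest fold of 3.48 and 3.37. Summits per kb of mRNA were 3.04 and 2.81 in IGF2BP3, against medians of 0.973 and 0.950.

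The strongest site was the same in both replicates. In exon 11, a coding exon of 117 nt in the part of the mRNA that encodes the KH domains, the replicate 1 peak had a fold of 6.23 and a q of 3.73e-05. The replicate 2 peak had a fold of 6.47 and a q of 1.35e-05. Their summits lay 29 nt apart, and both peaks covered 100% of the exon. By −log10 p these peaks stood at percentiles 99.0 and 99.6 of all peaks in their lists. Exon 9 gave a contrast. Its fold was 6.01 with a q of 0.000557 in replicate 1, but 2.62 with a q of 1 in replicate 2, so this height was seen in 1 replicate only. Every other peak of IGF2BP3 had a q above 0.05, with folds from 2.35 to 4.10.

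IGF2BP2 (ENSG00000073792.16, chromosome 3, 185643130 to 185825042, minus strand), known for its links to metabolism and diabetes risk, had 16 peaks in replicate 1 and 9 in replicate 2. That was 12.5 ± 4.95 (SD, n = 2), a wider spread than for IGF2BP3. The highest folds were 4.60 and 5.12 (4.86 ± 0.367, SD, n = 2), at percentiles 80.4 and 90.2 of protein-coding genes with a peak. They came from different exons. The fold of 4.60 lay in exon 13, where replicate 2 had 3.77. The fold of 5.12 lay in exon 6, where replicate 1 had 2.52. Exon 12 was the most alike, with folds of 4.32 and 4.33 and q of 0.00253 and 0.00267. In replicate 1 peaks with a q of at most 0.05 were also found in exons 2, 13 and 15, and in replicate 2 in exon 6.

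**Figure D2:**
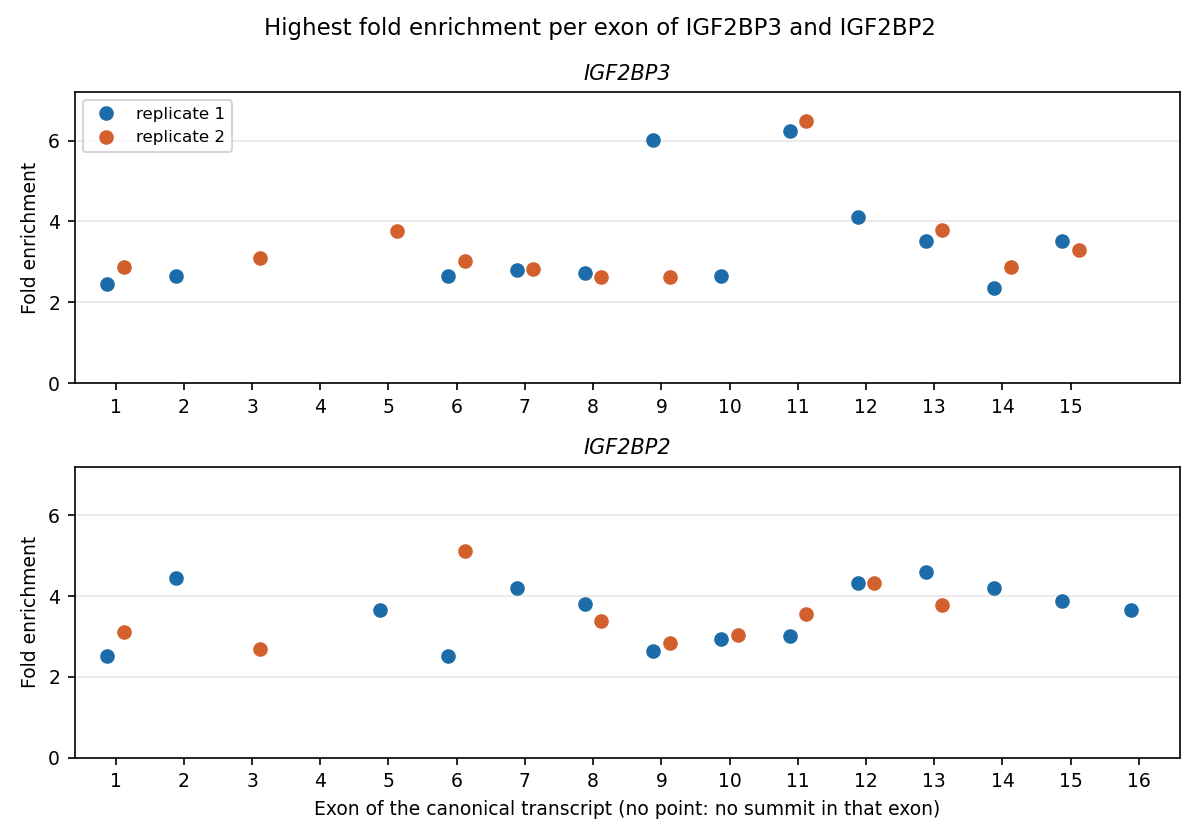
Highest fold enrichment on the y axis for each exon of the canonical transcript on the x axis, in IGF2BP3 (top) and IGF2BP2 (bottom), with 1 colour per replicate. Exon 11 of IGF2BP3 reaches 6.23 and 6.47, and exon 12 of IGF2BP2 gives 4.32 and 4.33, whereas exon 9 of IGF2BP3 and exon 6 of IGF2BP2 differ between replicates.

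The paralogs are alike enough in sequence for their exons to be matched. The coding sequences of IGF2BP2 and IGF2BP3 were identical at 68.7% of 1724 aligned bases, and the longest identical run was 14 nt. The 14 exon pairs that matched one to one ranged from 58.1% to 79.6% identity. In replicate 1 both members of a pair had a coding summit in 10 pairs, IGF2BP2 alone in 1, IGF2BP3 alone in 1 and neither in 2. In replicate 2 both had one in 6 pairs, IGF2BP2 alone in 1, IGF2BP3 alone in 4 and neither in 3. Since many exons of both genes held a summit, some shared pairs follow from that alone, and an excess was not tested. Exon 4, which has 52 nt in both genes, lacked a summit in both genes and both replicates. It was the sole such exon in either gene. Exon 11 of IGF2BP3 matched exon 12 of IGF2BP2. The pairs called at this q in both replicates therefore fell in matching exons of the paralogs. Both exons are shown because they carry that match, 5′ to 3′ on the mRNA strand. Capitals mark bases that differ from the aligned paralog or have no aligned base in it. The first exon is chr7:23319138-23319254 and the second chr3:185657286-185657402, both on the minus strand of GRCh38.
IGF2BP3 exon 11: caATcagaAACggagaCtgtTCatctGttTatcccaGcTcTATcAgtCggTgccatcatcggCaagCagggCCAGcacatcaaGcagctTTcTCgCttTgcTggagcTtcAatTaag
IGF2BP2 exon 12: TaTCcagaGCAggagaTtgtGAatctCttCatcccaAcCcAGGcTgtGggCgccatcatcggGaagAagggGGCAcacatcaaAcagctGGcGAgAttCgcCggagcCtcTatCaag

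The exons had 117 nt each, and 116 of these aligned between them, with 69.8% of aligned bases identical. The first bases of the exons were not aligned to each other, so their marks differ. Each held the letters CATC 4 times and GGAC 0 times. ACACA and CACAC stood once each in the IGF2BP2 exon and 0 times in the IGF2BP3 exon. Measured on the IGF2BP3 sequence, the aligned summits of the paralogs in these exons lay 9 nt apart in replicate 1 and 19 nt apart in replicate 2. Over the whole coding sequence, the distance from an IGF2BP3 summit to the nearest aligned IGF2BP2 summit had a median of 29 nt over 12 summits in replicate 1. In replicate 2 it was 75 nt over 10 summits, and it reached 228 nt.

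In both mRNAs the peaks followed the exons. No exon before the last held more than 1 canonical summit in either replicate. These exons ranged from 49 to 273 nt in IGF2BP2 and from 49 to 556 nt in IGF2BP3. Of 16 IGF2BP2 exons, 14 held a summit in replicate 1 and 9 in replicate 2, and 8 held one in both. Of 15 IGF2BP3 exons, 12 held a summit in replicate 1 and 11 in replicate 2, and 9 held one in both. As a share, this was 87.5% and 56.3% of exons for IGF2BP2, and 80.0% and 73.3% for IGF2BP3. Genes with at least 10 exons and a peak had a median of 31.3% in both replicates. Among them IGF2BP2 stood at percentile 95.4 in replicate 1 but 75.3 in replicate 2, and IGF2BP3 at 91.4 and 88.9. In replicate 1, 1 further summit of IGF2BP3 lay next to exon 5 in a transcript with a retained intron, and its peak overlapped the exon 5 peak of replicate 2. In the same replicate, 1 summit of IGF2BP2 lay in an exon of a transcript without a defined coding sequence.

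Coding sequence held most summits. On the canonical mRNAs of the 10 genes, 28 of 33 summits in replicate 1 and 21 of 23 in replicate 2 lay in the CDS, a mean of 88.1% ± 4.56 (SD, n = 2). The CDS made up 26.3% of the length of these mRNAs. The CDS share of summits over all genes was not computed, so the 88.1% cannot be called particular to these mRNAs. For its binding sites over the transcriptome, the study reported strong enrichment around stop codons and within 3′ UTRs. That was not re-examined here. The 3′ UTR made up 65.4% of the length. It held 3 summits in replicate 1 and 2 in replicate 2, a mean of 8.89% ± 0.279 (SD, n = 2). Much of that length belongs to mRNAs without a peak, but within IGF2BP2 and IGF2BP3 the order was alike. Their CDS was 42.0% and 40.7% of the mRNA and held 93.3% ± 9.43 and 87.8% ± 6.35 of summits (SD, n = 2 each).

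The 3′ UTR summits all fell within the 3′ UTRs of IGF2BP2 or IGF2BP3. In IGF2BP2 they lay 15 nt and 1480 nt past the stop codon, with folds of 3.66 and 3.15, in replicate 1 only. In IGF2BP3 a peak lay about 1 kb past the stop codon in both replicates. Its summits were at 1038 nt and 1070 nt, its folds 3.53 and 3.28, and its q 0.483 and 1. That summit also falls in an exon of MALSU1, a gene for a mitochondrial ribosome assembly factor, and since the lists carry no strand, the RNAs cannot be told apart. A further IGF2BP3 pair straddled the stop codon. The replicate 1 summit was 70 nt before the end of the stop codon (fold 2.74) and the replicate 2 summit 172 nt past it (fold 3.26).

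IGF2BP1 (ENSG00000159217.10, chromosome 17, 48997385 to 49056145, plus strand), the paralog first described as the zipcode-binding protein, had no peak in the gene. It was as close in sequence to IGF2BP3 as IGF2BP2 was, with 69.9% identity over 1716 aligned coding bases. The longest run that it shared with IGF2BP3 was 21 nt. A list of peaks above a limit says nothing about the level of an mRNA, so a gene with little RNA and a gene with RNA that was not enriched look the same here.

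The growth factor and chromatin genes had few peaks or none. IGF2, a fetal growth factor (ENSG00000167244.22, chromosome 11, 2129112 to 2158391, minus strand), and HMGA1 (ENSG00000137309.21, chromosome 6, 34236873 to 34246231, plus strand), which encodes an AT-hook chromatin protein, had 0 peaks in both replicates. HMGA2 (ENSG00000149948.14, chromosome 12, 65824460 to 65966291, plus strand), which encodes a related AT-hook protein, had 2 peaks in replicate 1 and 1 in replicate 2. In coding exon 2 the replicate 1 peak had a fold of 2.93 and a q of 0.0777, and the replicate 2 peak a fold of 2.0 and a q of 1. They overlapped by 12 bp. At its highest, HMGA2 ranked at percentile 30.01 of genes with a peak in replicate 1 and 2.14 in replicate 2. The other replicate 1 peak lay in the 5′ UTR with a fold of 2.65. No summit lay in the 3′ UTR, which has 2999 nt and is the part long known for regulation by let-7. The exon 2 peaks, among the shortest on these genes at 33 and 32 bp, are printed to show how small the region is that HMGA2's overlap rests on. They are chr12:65828043-65828075 in replicate 1 and chr12:65828023-65828054 in replicate 2, on the plus strand, and hold none of the short motifs that are compared further on.
HMGA2 replicate 1: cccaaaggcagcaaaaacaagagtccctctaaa
HMGA2 replicate 2: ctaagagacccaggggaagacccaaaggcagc

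LIN28B (ENSG00000187772.8, chromosome 6, 104936616 to 105083332, plus strand), which blocks maturation of let-7 microRNAs, had 0 peaks. Many IGF2BP targets are also let-7 targets, so the letters CTACCTC, which pair with the let-7 seed, were counted on the mRNA strand of each canonical 3′ UTR. IGF2BP1, HMGA2 and LIN28B held 4 each, and IGF2BP2, IGF2BP3 and HMGA1 held 1 each. IGF2, CD44, MYC and ACTB held 0. Among 6017 canonical 3′ UTRs of at least 2000 nt in all genes, 20.9% held these letters at least once. None of the 3′ UTRs with 4 copies had a summit. In IGF2BP2 the nearest summit to the site was 176 nt away in replicate 1, and in IGF2BP3 the nearest was 478 nt away in replicate 1 and 388 nt in replicate 2.

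CD44, a receptor for hyaluronan (ENSG00000026508.21, chromosome 11, 35138882 to 35232402, plus strand), had 1 peak in each replicate, and they did not overlap. The replicate 1 peak lay in the 5′ UTR in exon 1, with a fold of 2.64 and a q of 1. The replicate 2 peak lay in coding exon 3, with a fold of 3.04 and a q of 0.0864. CD44 thus counts as a gene with a peak in both replicates while no site was found in both. Its 3′ UTR of 3069 nt, where IGF2BP binding is best known, held 0 summits. The exon 3 peak, chr11:35180338-35180370 on the plus strand, is shown because it is the highest target peak of replicate 2 and holds CA-rich letters. The capitals mark ACACA and CATC.
CD44 replicate 2: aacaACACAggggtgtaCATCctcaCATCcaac

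ACTB, the beta-actin gene (ENSG00000075624.17, chromosome 7, 5526409 to 5563902, minus strand), had 0 peaks, although its 3′ UTR carries the zipcode, the best known IGF2BP element. The pattern GGACT and ACACC with a gap of 8 to 25 bases was found once in the ACTB 3′ UTR, with a gap of 16, in the first 30 bases after the stop codon in exon 6. On the mRNA strand, 3.31% of 19550 canonical 3′ UTRs of protein-coding genes held it. The element, chr7:5527718-5527747 on the minus strand, is printed with both parts in capitals.
ACTB zipcode: gcGGACTatgacttagttgcgttACACCct

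The other actin genes were alike in this respect. Of ACTG1, ACTA1, ACTA2, ACTC1, ACTG2 and ACTBL2, 0 of 6 had an exonic peak in either replicate. Among markers of an epithelial line, 1 of 6 had a peak in both replicates, CDH1, which encodes E-cadherin. KRT8, KRT18, KRT19, EPCAM and ERBB2 had none, although OE-19 is known for ERBB2 amplification. Of 5 markers of other cells, 0 had a peak in both, and COL1A1 had 5 peaks in replicate 2 only. The lists therefore neither check the cell type nor show which of the 10 genes were expressed.

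MYC, a transcription factor gene (ENSG00000136997.22, chromosome 8, 127735434 to 127742951, plus strand), had its peaks in replicate 1 only. Their folds of 2.55 and 2.22 ranked low, at percentiles 25.4 and 6.30 of all replicate 1 peaks, and both had a q of 1. The summits lay in the CDS, 599 nt and 427 nt before the end of the stop codon. The coding region determinant is known to lie at the 3′ end of the CDS, and no summit lay in the last 427 nt of the CDS. The first of these summits also falls in an exon of CASC11, a long noncoding RNA gene.

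**Figure D3:**
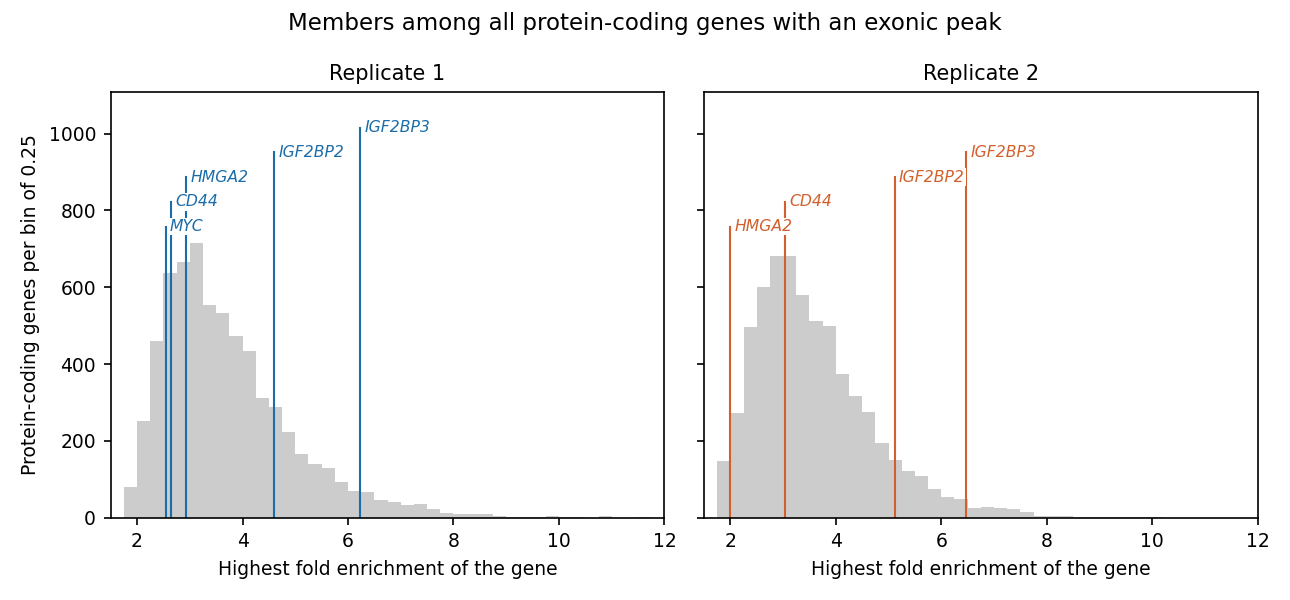
Highest fold enrichment per gene on the x axis and the number of protein-coding genes per bin of 0.25 on the y axis, 1 panel per replicate, with lines at those of the 10 genes that had a peak. IGF2BP3 stands in the upper tail at 6.23 and 6.47, IGF2BP2 at 4.60 and 5.12, and the targets at or below 3.04.

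Context lists were set beside the 28.0% of all protein-coding genes with an exonic peak in both replicates, as a description with no test. In the insulin-like growth factor axis, exonic peaks were seen in both replicates for 5 of 12 genes, or 41.7%. They were the receptors IGF1R, IGF2R and INSR and the adaptors IRS1 and IRS2. IGF1R had 25 and 28 peaks with highest folds of 6.43 and 5.92 (6.18 ± 0.362, SD, n = 2), IRS2 had a mean of 4.85 ± 0.169 and IRS1 4.01 ± 0.306 (SD, n = 2 each). Of the 6 binding proteins IGFBP1 to IGFBP6, IGFBP3 had 3 peaks in replicate 1 and 0 in replicate 2, and the others had 0. In the LIN28 and let-7 axis, 4 of 6 genes had a peak in both, or 66.7%. The microRNA-processing nucleases DROSHA (5.24 ± 0.399) and DICER1 (4.82 ± 0.523) and the uridylyltransferase TUT7 (3.93 ± 0.347) had the highest mean folds (SD, n = 2 each).

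Of 10 genes for proteins found with IGF2BPs in granules, 7 had a peak in both replicates, or 70%. STAU1 (4.40 ± 1.01), FMR1 (4.03 ± 0.421) and KHSRP (3.45 ± 0.760), which all encode RNA-binding proteins, led by mean fold (SD, n = 2 each), and YBX1, DHX9 and MATR3 had none. Of 18 other RNAs known as IGF2BP targets, 8 had a peak in both replicates, or 44.4%. CDK6, a cell cycle kinase (4.93 ± 0.821), and SRF, a transcription factor (4.40 ± 1.21), were among those with the highest mean fold (SD, n = 2 each). H19, the imprinted long noncoding RNA, had 1 peak with a fold of 2.43 in replicate 2 and 0 in replicate 1.

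**Figure D4:**
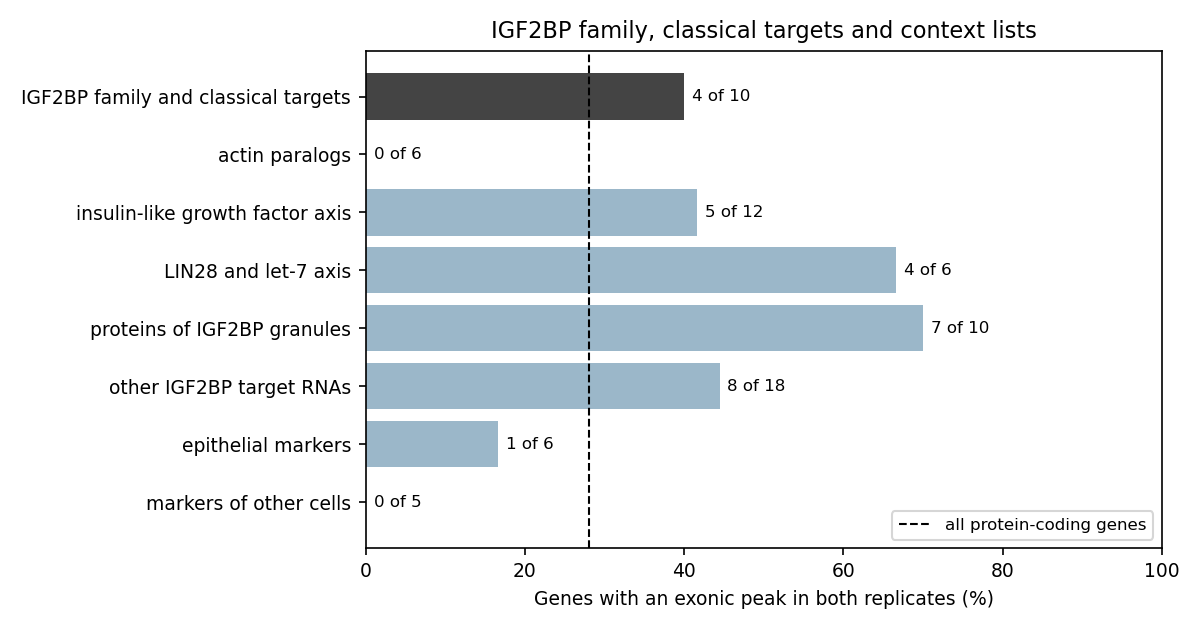
Percent of genes with an exonic peak in both replicates on the x axis, for the 10 genes and 7 context lists, with the share of all protein-coding genes (28.0%) as a dashed line. The share is 40% for the 10 genes, 70% for granule proteins and 0% for the other actins, with peaks of any q counted.

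Sequence around the summits was compared with that around all exonic summits, in genomic windows that reach 50 nt to either side of the summit, read on the strand of the gene. Where an exon is short or the summit lies near its edge, a window also holds intron sequence, which the spliced mRNA lacks. Summits in exons of 1 protein-coding gene gave 34 windows on the 10 genes in replicate 1 and 22 in replicate 2. TGGAC, the DNA form of the sequence named by the study, stood in 7 and 3 of them, which was 20.6% and 13.6% against 11.9% and 11.8% of all windows. GGAC, which is contained in TGGAC, stood in 38.2% and 31.8% against 30.3% and 30.2%. CATC stood in 35.3% and 54.5% against 37.3% and 36.7%, and CATT in 8.82% and 18.2% against 33.8% and 34.3%. CATA stood in 20.6% and 22.7% against 19.1% and 19.5%. ACACA stood in 14.7% and 18.2% against 10.8% and 10.3%, and CACAC, which overlaps with it, in 8.82% and 9.09% against 8.99% and 8.57%. Many windows of the replicates cover the same exon and nearly all come from IGF2BP2 and IGF2BP3, so they are not independent, and no test was made. Mean GC content was 51.4% and 49.5% in these windows against 48.7% and 48.2%.

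Folds and p-values came in steps. The 44622 peaks of replicate 1 shared 3114 distinct pairs of fold and p, and the 42723 of replicate 2 shared 2738. Of the peaks on the 10 genes, 33 of 35 and 22 of 23 had a pair of values that at least 1 other peak in the list had too. The exon 1 and exon 6 peaks of IGF2BP2 in replicate 1, for example, shared a fold of 2.52 and a p with 1204 peaks in all. The read depth behind the values is unknown.

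By pattern over the replicates, STK40 and ABCC1 were the genes most like IGF2BP2, and PDE4A and ZMIZ2 most like IGF2BP3. Likeness was the distance over highest fold and summits per kb in both replicates, each on the log2 scale and in units of its SD over genes. The distances were 0.0941 and 0.214 for IGF2BP2, and 0.251 and 0.303 for IGF2BP3, among 5444 genes with median distances of 2.45 and 3.41. PDE4A had 14 peaks in each replicate with highest folds of 6.33 and 6.17, and STK40 had 13 and 9 with 4.58 and 5.10. With 2 samples, this describes these libraries only.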

How the data were processed

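Peak lists of 2 IGF2BP3 RIP samples from OE-19 cells were analysed, with groups taken from the sample titles. The submitters' processing notes name fastp, HISAT2 and MACS2 on hg38, while the methods of the study name Tophat2 and MACS2 at default settings. The deposited lists were not cut at a q of 0.05. Only 9.77% of peaks in replicate 1 and 7.47% in replicate 2 were at or below it. A peak counted here therefore need not pass that limit. Peaks were called per sample, and the control library is not given in the sources used here. The deposited values are a fold enrichment (a ratio to the local background), a −log10 p, a −log10 q and a score equal to the whole part of 10 times the −log10 p. The authors' p-values and q-values were used as deposited, and the score was not analysed further. The depth is unknown, so no counting interval was given.

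Summits (start plus offset) were assigned to exons of GENCODE 44 on GRCh38, without strand. No peak ran past a chromosome end, a count of 0. Regions followed the canonical transcript. Peaks overlapping by at least 1 bp counted as shared. Percentiles are among protein-coding genes with an exonic peak, or among all peaks of a list, with ties at their midpoint. Those of exon shares are among such genes with at least 10 exons. Coding sequences were aligned globally with Biopython 1.88. Python 3.11.15, numpy 2.4.6, pandas 2.3.3 and matplotlib 3.10.9 were used. Mapping of summits to exons was tested on simulated data, and 2000 of 2000 placed summits were recovered. The summits were placed in annotated exons, so this checks the mapping code only and not the reading of the peak lists.

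No test was run, since 2 samples of 1 group allow none. The genes named were all 10 genes, the context lists as counts with the 3 genes of highest mean fold, and the 2 nearest genes for those with at least 3 peaks in both replicates. List members named beyond this were chosen after their values were seen. Values of 1 gene that the rule names are not reported here. The genes and lists were chosen with earlier results of these data known. Alternatives were limits on q (0.05), p (1e-05) and fold (3), other gene assignments, transcripts and overlap rules, and leaving out each replicate.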

Additional observations from a re-analysis of the deposited data

How the results depend on the processing

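No paired analysis was possible because no result comes from a test between groups, the input samples having no values here. With a q of at most 0.05, the genes with an exonic peak in both replicates fell from 4 to 2, the mean number of exonic peaks on the 10 genes from 29 to 4.5, and the CDS share rose to 100%. With a p of at most 1e-05 these were 2, 8 and 100%. With a fold of at least 3, the genes in both replicates were 2 and the mean number of peaks 16.0, and the percentage of peaks overlapping one of the other replicate was 43.9 instead of 68.4. Stricter limits leave fewer peaks by construction. Assigning peaks by any exon overlap, by gene body, by canonical exons or by exons of 1 gene moved none of these 4 values by more than 1.5 times or 1 SD. Single replicates gave 23 to 35 peaks, 54.3% to 82.6% overlapping and a CDS share of 84.8% to 91.3%. Of 75 values for single genes under the alternatives, 58 stayed within those limits and 17 did not. This count is a weak check too. The highest folds of IGF2BP2 and IGF2BP3 could not move under limits on q, p or fold, since their highest peaks passed them. For HMGA2 and CD44 it holds no highest fold under these limits. MYC rests on replicate 1 alone. A single one of 2 replicates cannot lie further than 1 SD from their mean, so the leaving-out of a replicate is a weak check. The unknown depth limits what the absence of a peak can show.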
